A study of Lytechinus variegatus with 8 samples.

Results

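The genes described here are the 6 copies annotated as leucine-rich repeat-containing protein 15-like (LRRC15-like) in the sea urchin Lytechinus variegatus, out of 26814 genes counted. They were taken by the product name in the deposited gene table, and the set was selected on 1 measured value, the level of LOC121417626, which was far higher in secondary than in primary spines. RNA was sequenced from secondary spines (4 libraries, 100 spines pooled in each) and primary spines (4 libraries, 50 spines pooled in each). Both kinds came from the same 4 wild-caught animals, all wild type and of the white-and-green morph; the animals' ages are not given in the sources used here. Libraries are numbered by animal, so secondary library 1 and primary library 1 share an animal.

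Leucine-rich repeats are short protein motifs that stack into a curved scaffold and usually serve to bind other proteins. Human LRRC15 is a membrane protein whose repeats lie outside the cell, and it is known as a TGF-beta-induced gene of fibroblasts. What the sea urchin genes do is not known from these files: the names come from annotation, and the deposited table gives no Swiss-Prot match for any of the 6.

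The libraries held 9252184 to 10738336 counted reads in secondary spines and 9623336 to 10902546 in primary spines. Reads relative to library size (CPM) below are scaled between libraries by the TMM method, and values after ± are SD over 4 libraries. FPKM are the authors' values, per gene length, and are used wherever 1 gene is set against another. Log2 fold changes are from edgeR, secondary over primary. The values after their ± are approximate standard errors, derived as the absolute log2 fold change over the square root of edgeR's quasi-likelihood F. A gene was called when its Benjamini-Hochberg adjusted p over all 16788 genes tested was below 0.05. Markers of the cell types that spines hold were compared by summed CPM. The 73 axonemal genes of the ciliated cell list summed to 6889 to 8824 CPM in secondary spines and 1173 to 2327 CPM in primary spines. Of the 65 ciliated cell genes tested, 55 were called higher in secondary spines and 0 lower, beside 5.88% and 1.93% of all genes. The 4 ciliated cell genes at 0 in all libraries were all copies annotated as CFAP251-like. The summed ranges of the muscle, nerve, skeletogenic, pigment cell and coelomocyte lists overlapped between the kinds. Called higher in secondary spines were 2 of 17 muscle genes tested, 2 of 9 nerve genes and 1 of 20 coelomocyte genes. In these lists, 1 coelomocyte gene was called lower, and 0 of 13 skeletogenic and 0 of 9 pigment cell genes were called. The median log2 fold changes were 0.06 (muscle), 0.48 (nerve), 0.63 (skeletogenic), -0.07 (pigment cell) and -0.54 (coelomocyte). In pooled spines, fewer cells of a type and less RNA per cell cannot be told apart.

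The 6 copies lie on 4 chromosomes of assembly Lvar_3.0. LOC121422303 spans 73028828 to 73051321 and LOC121422284 spans 73010395 to 73020181, side by side on the plus strand of chromosome 1. LOC121406017 lies elsewhere on chromosome 1, at 10831257 to 10833685 on the plus strand. LOC121417626 lies on the plus strand of chromosome 6, at 20273184 to 20356103, and its 82.9 kb make it the longest of the 6 loci. LOC121414011 lies on the minus strand of chromosome 4, at 38915981 to 38920040, and LOC121418084 on the plus strand of chromosome 7, at 26440384 to 26442327. The deposited table lists the leucine rich repeat domain PF13855 for each of the 6. LOC121417626 alone among them is also listed with the BspA-type repeat region PF13306, a leucine-rich repeat family first described in bacterial surface proteins. In the whole table, 7 genes carry the BspA-type domain, of which 4 were tested, LOC121417626 among them. The other 3 tested, outside the rule for named genes, were not called by edgeR, beside 7.81% of all genes called. Their log2 fold changes were 0.12 ± 0.63 (LOC121417708), -0.16 ± 0.58 (LOC121417702) and -0.24 ± 0.24 (LOC121427217). LOC121417708 and LOC121417702 also lie on chromosome 6 and are listed with PF13855, F5/8 type C, calcium-binding EGF, thrombospondin and concanavalin A-like lectin domains as well. The remaining genes with the BspA-type domain had too few reads to be tested. LOC121411578 had 54 reads in secondary spines and 6 in primary spines, and its groups did not overlap, as for 15.2% of all genes tested. LOC121424531 had 49 reads in secondary spines and 17 in primary spines, with overlapping groups. LOC121409695 had 0 reads in both kinds.

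LOC121417626 was high in every secondary library and low in every primary library. It had 869, 942, 933 and 1186 reads in secondary spines 1 to 4, against 14, 26, 23 and 19 reads in primary spines 1 to 4. The groups did not overlap, which also held for 15.2% of all genes tested. Scaled to CPM, it averaged 94.2 ± 8.24 in secondary spines and 2.14 ± 0.483 in primary spines, a ratio of 44.1. The log2 fold change was 5.45 ± 0.21, and 35 of the 16788 genes tested had a higher one. Because this difference led to the choice of the genes, it is given as a description with no test. The summed ciliated cell markers were also higher in every secondary library (median 1.88 on the log2 scale over the 65 tested), and their part in this difference was not tested.

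Within animals 1 to 4 the gene was higher in the secondary library by 5.63, 5.10, 5.14 and 5.55 on the log2 CPM scale, with an SD of 0.27. Its level was steady among secondary libraries: the coefficient of variation was 8.74%, against a median of 15.8% over the 2741 genes within 2-fold of its secondary level. Of those genes, 526 (19.2%) varied less. LOC121417626 was chosen on its values in these same libraries, so its spread too is a description with no test. Among primary libraries, where few reads were counted, LOC121417626 varied by 22.6%.

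The other 5 copies did not share this pattern. LOC121422303 was the most abundant copy in both kinds of spine. It had 481, 596, 864 and 639 CPM in secondary spines 1 to 4, against 565, 694, 1000.2 and 825 CPM in primary spines 1 to 4. The groups overlapped, although in each animal the secondary library was the lower one, by 0.21 to 0.37 on the TMM-scaled log2 CPM scale. In animal 1 this order rested on the TMM scaling, with 4962 of 9693085 reads in the secondary library and 5256 of 10366312 in the primary library. The log2 fold change was -0.26 ± 0.22 (edgeR adjusted p = 0.654). With the animal as a block the same difference had a smaller error, -0.26 ± 0.09, and edgeR's adjusted p was 0.0813, still above the threshold. With library size alone in place of TMM, the log2 fold change was -0.11 (edgeR adjusted p = 0.909).

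LOC121422284, its neighbour, had 49.3, 88.3, 123 and 120 CPM in secondary spines 1 to 4, against 54.0, 80.9, 96.9 and 94.5 CPM in primary spines 1 to 4. The secondary library was lower in animal 1 and higher in the other three animals, and the groups overlapped. The log2 fold change was 0.22 ± 0.30 (edgeR adjusted p = 0.817).

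LOC121414011 was a low copy in both kinds. It had 30, 46, 112 and 45 reads in secondary spines 1 to 4, against 47, 57, 80 and 32 reads in primary spines 1 to 4. Its means were 5.67 ± 3.71 CPM in secondary spines and 5.65 ± 2.09 CPM in primary spines, with library 3 the highest in each kind. The log2 fold change was 0.00 ± 0.47 (edgeR adjusted p = 1.0), and its direction differed among animals.

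The remaining copies were at the limit of detection. LOC121418084 had 2 reads over all secondary libraries and 1 read over all primary libraries, or 0.0507 CPM in secondary spines (95% exact Poisson interval 0.00615 to 0.183) and 0.0247 CPM in primary spines (0.000624 to 0.137). For this copy and the next, CPM are the group's reads over its total reads, without TMM scaling. LOC121406017 had 0 reads among 79973703 in all 8 libraries, for which the 95% exact Poisson interval reaches up to 0.0461 CPM. A level of 3 counts would be 0.0375 CPM. These intervals and limits cover counting error only, and a difference between the kinds was not detectable at this depth for either copy.

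Of the 5 copies other than LOC121417626, 3 passed the filter on low counts and 0 were called by edgeR, beside 7.81% of all genes tested. None of the 3 had an unadjusted edgeR p below 0.05, against 19.3% of all genes tested, and DESeq2 also called 0, beside 12.9% of all genes. With the animal as a block, edgeR again called 0, beside 24.1% of all genes, and 1 copy (LOC121422303, lower in secondary spines) passed 0.05 before adjustment, as did 37.8% of all genes. On the log2 scale the median difference was 0.00 over the 3 copies and -0.03 over all genes tested.

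**Figure D1:**
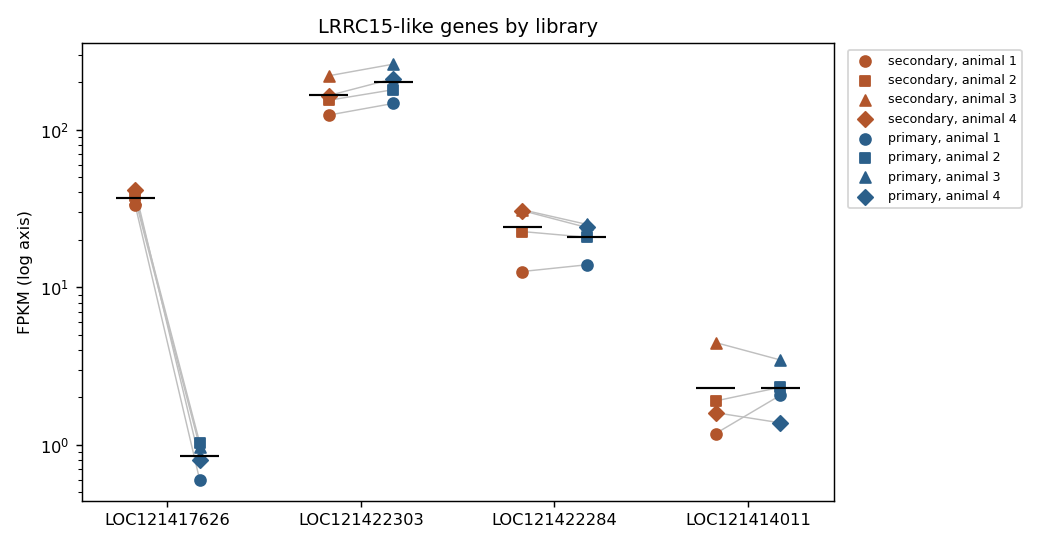
FPKM (log axis) of the 4 LRRC15-like genes that passed the filter, with 1 point per library and a bar at the mean of 4 libraries, secondary left of primary. LOC121417626 lies at 33.2 to 41.2 FPKM in secondary libraries and 0.598 to 1.03 FPKM in primary libraries, while the secondary and primary points of each other copy overlap.

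Set beside each other per gene length, the copies changed their order between the kinds of spine through LOC121417626 alone. In secondary spines the order of mean FPKM was LOC121422303 (166 ± 40.3), LOC121417626 (37.1 ± 3.34), LOC121422284 (24.2 ± 8.70) and LOC121414011 (2.29 ± 1.48). In primary spines it was LOC121422303 (199.6 ± 48.6), LOC121422284 (20.9 ± 5.04), LOC121414011 (2.30 ± 0.868) and LOC121417626 (0.848 ± 0.194). In secondary spines the lowest LOC121417626 library, at 33.2 FPKM, was above the highest LOC121422284 library, at 31.1 FPKM. In primary spines the highest LOC121417626 library, at 1.03 FPKM, was below the lowest LOC121414011 library, at 1.38 FPKM. The ranges of neighbours in either order of these 4 did not overlap, and the orders were not tested. Among all genes of a library, LOC121417626 ranked between 975 and 1265 in secondary spines and between 14520 and 15753 in primary spines.

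The summed FPKM of the 6 copies was 171, 217, 292 and 238 in secondary spines 1 to 4, against 163, 204, 290.3 and 238 in primary spines 1 to 4. LOC121417626 held 19.4%, 17.5%, 12.4% and 17.3% of that sum in secondary spines 1 to 4, and 0.367%, 0.504%, 0.334% and 0.335% in primary spines 1 to 4. The sum followed the animals in both kinds, highest in animal 3 and lowest in animal 1, and LOC121422303 was the largest part of every sum.

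**Figure D2:**
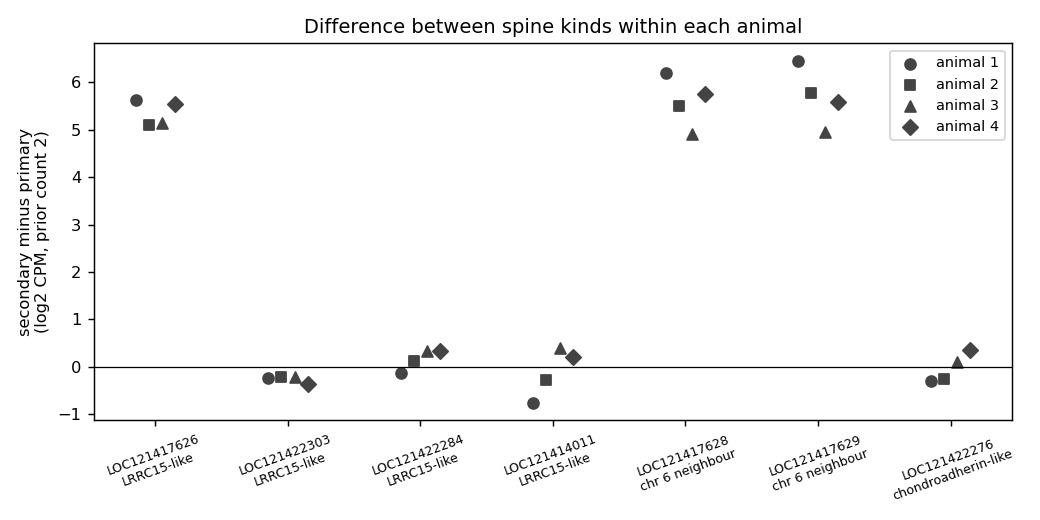
Difference between the secondary and the primary library of each animal (log2 CPM, prior count 2), with 1 point per animal, for the 4 tested copies and 3 genes next to them. LOC121417626 and its chromosome 6 neighbours LOC121417628 and LOC121417629 lie at 4.91 to 6.46 in the 4 animals, LOC121422303 at -0.37 to -0.21, and LOC121422284, LOC121414011 and the chondroadherin-like LOC121422276 have animals on both sides of 0.

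Ratios between copies of the same library do not depend on the scaling between libraries. The 3 pairs among the tested copies other than LOC121417626 were compared on log2 FPKM ratios with a pseudocount of 0.1. LOC121422303 exceeded LOC121422284 by 2.82 ± 0.36 in secondary spines and by 3.25 ± 0.15 in primary spines, a difference of -0.43 (two-sided exact permutation p = 0.0857, adjusted over 3 pairs 0.257). The ratio of the linear FPKM ran from 5.37 to 9.85 in secondary libraries and from 8.65 to 10.6 in primary libraries, so the ranges overlapped. In each of the 4 animals the ratio was lower in the secondary library: 9.85, 6.81, 7.09 and 5.37 in secondary spines 1 to 4, against 10.6, 8.65, 10.4 and 8.81 in primary spines 1 to 4. LOC121422303 exceeded LOC121414011 by 6.26 ± 0.47 in secondary spines and 6.41 ± 0.50 in primary spines (exact permutation p = 0.629, adjusted 0.629). LOC121422284 exceeded LOC121414011 by 3.44 ± 0.58 in secondary spines and 3.16 ± 0.60 in primary spines (exact permutation p = 0.486, adjusted 0.629). No pair passed the threshold, and 4 libraries against 4 allow no p below 0.0286. This test leaves out that the libraries share animals. A two-sided exact sign-flip permutation test within the 4 animals, added after the values were seen, gave p = 0.125 for LOC121422303 over LOC121422284 (adjusted 0.375), which is the smallest p it allows, so it could not pass the threshold.

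The LRRC15-like neighbours on chromosome 1 ranked the animals alike. Both LOC121422303 and LOC121422284 were highest in animal 3, then 4, 2 and 1, in secondary and again in primary spines. For LOC121422284, animals 3 and 4 were nearly level, at 123 and 120 CPM in secondary spines and 96.9 and 94.5 CPM in primary spines. Over all genes tested, 22.2% had the same order of animals in both kinds, and 161 genes (0.959%) had exactly this order in both. Another leucine-rich repeat gene stands before them on the same strand: LOC121422276, annotated as chondroadherin-like after a vertebrate cartilage matrix protein, at 72997311 to 73003074. It ends 7.32 kb before LOC121422284, which ends 8.65 kb before LOC121422303. LOC121422276 had 223, 419.7, 279 and 249 CPM in secondary spines 1 to 4, against 275, 498, 258 and 195 CPM in primary spines 1 to 4. It was highest in animal 2 in both kinds, an order unlike that of its neighbours, and its log2 fold change was -0.07 ± 0.31 (edgeR adjusted p = 0.964). On the far side, LOC121422319 is annotated as a serine incorporator, a membrane protein family. It had 349.6 ± 52.7 CPM in secondary spines and 445 ± 82.7 CPM in primary spines, a log2 difference of -0.35 ± 0.17 (edgeR adjusted p = 0.329), and was called lower in secondary spines with the animal as a block (-0.34, edgeR adjusted p = 0.0315). That call was lost with the block when any 1 animal was left out, at edgeR adjusted p of 0.0523 to 0.126.

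**Figure D3:**
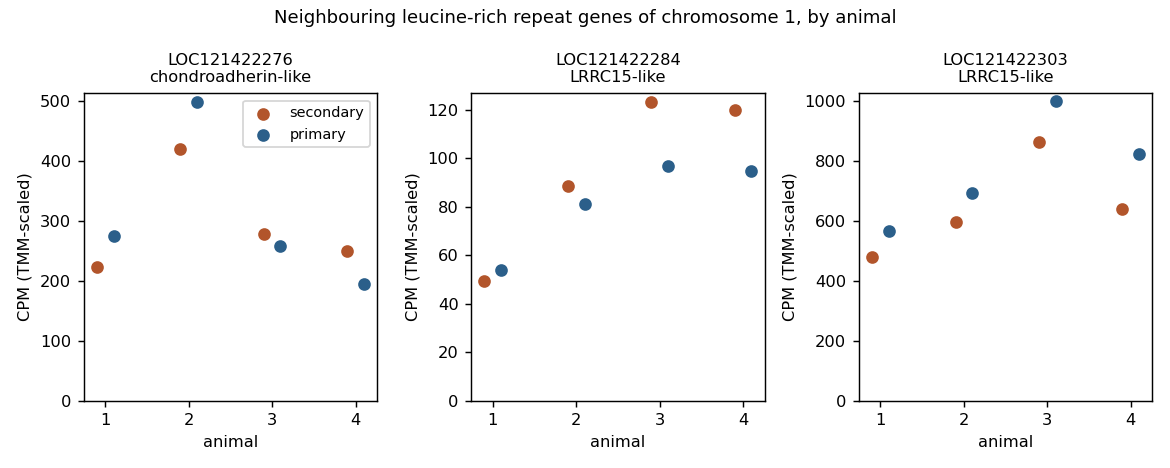
CPM (TMM-scaled) of the chondroadherin-like LOC121422276 and the LRRC15-like LOC121422284 and LOC121422303 on chromosome 1, by animal, secondary left of primary. Both LRRC15-like genes are highest in animal 3 and lowest in animal 1 in each kind of spine, while LOC121422276 is highest in animal 2.

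On chromosome 6, LOC121417626 was the first of a run of strongly secondary-biased genes on the plus strand. LOC121417628, an uncharacterized gene that also carries the leucine rich repeat domain PF13855, lies at 20367523 to 20397448, 11.4 kb after the end of LOC121417626. It had 391, 486, 378 and 582 reads in secondary spines 1 to 4, against 3, 9, 10 and 7 reads in primary spines 1 to 4. Its means were 44.0 ± 7.28 CPM in secondary spines and 0.756 ± 0.315 CPM in primary spines, a ratio of 58.2, and its log2 fold change was 5.84 ± 0.33. LOC121417629, also uncharacterized, starts 1.59 kb further on and spans 20399037 to 20559387; it is outside the rule for named genes and was picked after its values were seen. The deposited table lists F5/8 type C, calcium-binding EGF, thrombospondin type 3 repeat, thrombospondin C-terminal, concanavalin A-like lectin and kringle domains for it. It had 4884, 2362, 3497 and 4747 reads in secondary spines 1 to 4, against 48, 42, 105 and 79 reads in primary spines 1 to 4. Its means were 369.5 ± 100.5 CPM in secondary spines and 7.22 ± 3.15 CPM in primary spines, a ratio of 51.2, and its log2 fold change was 5.68 ± 0.39. Within animals 1 to 4 the secondary library was higher by 6.19, 5.50, 4.91 and 5.76 on the log2 CPM scale for LOC121417628. For LOC121417629 the differences were 6.46, 5.78, 4.95 and 5.59. No primary library of either gene reached its lowest secondary library. They drew attention by the same difference as LOC121417626, so no test is given for them.

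Per gene length the 3 genes of the run stood at like levels within each kind of spine. Mean FPKM was 37.1 ± 3.34 for LOC121417626, 37.6 ± 6.41 for LOC121417628 and 41.1 ± 11.2 for LOC121417629 in secondary spines. In primary spines it was 0.848 ± 0.194 for LOC121417626, 0.649 ± 0.273 for LOC121417628 and 0.809 ± 0.356 for LOC121417629. Within libraries, the FPKM of LOC121417628 was 0.878 to 1.12 times that of LOC121417626 in secondary spines and 0.464 to 0.942 times in primary spines. For LOC121417629 the ratio to LOC121417626 was 0.709 to 1.59 in secondary spines and 0.457 to 1.29 in primary spines. Whether the 3 gene models belong to separate transcripts cannot be read from counts per gene.

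The genes on either side of the run were not called. Before it, on the minus strand, LOC121417165 is annotated as complement C3-like, after the central component of the complement system. It had 2322 ± 788 CPM in secondary spines and 2449 ± 530.1 CPM in primary spines, a log2 difference of -0.08 ± 0.25 (edgeR adjusted p = 0.946). LOC121417627, between LOC121417626 and LOC121417628 on the minus strand, had 23 reads in secondary spines and 12 in primary spines and was not tested. After the run, also on the minus strand, LOC121417168 is annotated as SHOC-2-like and carries PF13855 as well. It had a mean of 14.5 ± 2.07 FPKM in secondary spines and 17.2 ± 3.78 FPKM in primary spines, a log2 difference of -0.24 ± 0.20 (edgeR adjusted p = 0.632); it too is outside the rule for named genes. Over all chromosomes, 54 tested genes had a log2 fold change of 5 or more. Of those, 10 had another within 3 genes on the same chromosome and 6 had at least 2 others. LOC121417626, LOC121417628 and LOC121417629 are themselves among the 6, and the rest are LOC121430595, LOC121430597 and LOC121430653 on chromosome 17.

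**Figure D4:**
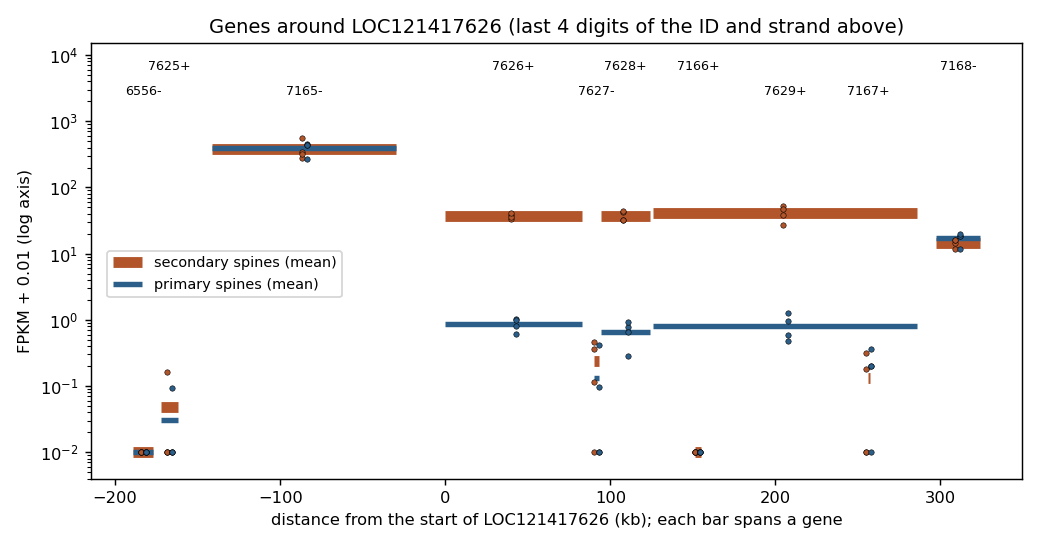
Mean FPKM (log axis, plus 0.01) of the 10 genes around LOC121417626 in secondary and primary spines, against distance from its start in kb; each bar spans a gene and points are libraries, offset about its middle. LOC121417626, LOC121417628 and LOC121417629 lie at 37.1 to 41.1 FPKM in secondary spines and 0.649 to 0.848 FPKM in primary spines, while the bars of the complement C3-like gene overlie each other.

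Around the copies on other chromosomes, 1 neighbour was called. Beside LOC121414011, LOC121412972 had 0 reads in all libraries. Its other neighbour, LOC121414012, annotated by domain as a GMC oxidoreductase, differed by -0.51 ± 0.70 on the log2 scale (edgeR adjusted p = 0.818). With the animal as a block the difference was -0.42 ± 0.13 (edgeR adjusted p = 0.0508), just above the threshold. In each animal the secondary library was the lower one, at -0.63 to -0.17 on the log2 CPM scale. Beside LOC121418084, LOC121418869 is annotated as transmembrane protein 26-like. It was called higher in secondary spines, with 61.9 ± 16.2 CPM in secondary spines and 12.0 ± 7.02 CPM in primary spines, 2.37 ± 0.50 on the log2 scale (edgeR adjusted p = 0.0239). That call was lost without secondary library 1 or 4 or primary library 3, with edgeR's adjusted p up to 0.0704. On the other side of LOC121418084, LOC121418871 differed by -0.06 ± 0.33 on the log2 scale (edgeR adjusted p = 0.970). The neighbours of LOC121406017 were hardly expressed: LOC121427803 had 41 reads in secondary spines and 35 in primary spines, and LOC121427866 had 1 read in secondary spines and 2 in primary spines.

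Across the 8 libraries, the gene whose log2 CPM was most like that of LOC121417626 was its neighbour LOC121417628 (Pearson r = 0.998 among 12880 genes compared). Next came LOC121423244, annotated as a titin homolog (r = 0.994), with 195 CPM in secondary spines and 63.7 CPM in primary spines. LOC121419414, annotated as usherin-like after a large vertebrate protein of basement membranes and sensory cells, followed at r = 0.993, with 163 CPM in secondary spines and 49.4 CPM in primary spines. The uncharacterized LOC121427431 (20.7 CPM in secondary spines and 6.86 CPM in primary spines) and LOC121419173 (28.5 CPM in secondary spines and 13.1 CPM in primary spines) also had r = 0.993. These correlations over 8 libraries mostly restate the gap between the 2 kinds, and the libraries share their animals in pairs. They are given with no test, and the 4 genes on other chromosomes had ratios of means of 2.18 to 3.31, against 44.1 for LOC121417626.

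The gene most like LOC121422303 was LOC121407208, annotated as protein arginine N-methyltransferase 5-like, with r = 0.993, 15.6 CPM in secondary spines and 18.1 CPM in primary spines. The uncharacterized LOC121412587 (r = 0.978), the beta-arrestin-1-like LOC121430114 (r = 0.972), the angiopoietin-1 receptor-like LOC121424519 (r = 0.97) and the TPR repeat gene LOC121420505 (r = 0.97) followed. Their log2 fold changes ran between -0.76 and -0.14 and none of the 5 was called by edgeR. With the animal as a block, LOC121412587 (edgeR adjusted p = 0.00515) and LOC121424519 (edgeR adjusted p = 0.0126) were called lower in secondary spines. The call of LOC121424519 was lost with the block when animal 2 or 3 was left out, at edgeR adjusted p of 0.0515 and 0.0788.

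Other leucine-rich repeat genes were listed by product name alone. The names include extensin-like proteins, and not all of the genes are listed with the PF13855 domain of the copies. LOC121410040, LOC121408233 and LOC121418180, named below, are listed with no domain. The 3 lists held 159 genes. Of the 115 tested, 20 were called higher and 2 lower in secondary spines by edgeR, beside 5.88% of all genes called higher and 1.93% called lower. Their median log2 fold change was 0.18, against -0.03 for all genes tested. With the animal as a block 33 were called higher and 7 lower, beside 12.4% and 11.7% of all genes. DESeq2 called 30 higher and 4 lower, beside 8.34% and 4.57% of all genes. The 22 calls of the group-only fit became 14 without primary library 1, 13 without secondary library 2 or 3, and 12 without secondary library 4.

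Of 7 cilia-linked genes, all were tested and 3 were called higher and 0 lower, beside 5.88% and 1.93% of all genes. The median was 1.54 on the log2 scale, and 6 were called higher with the animal as a block, beside 12.4% of all genes. The LRRC23-like LOC121427390, after a radial spoke component of the axoneme, differed by 1.61 ± 0.26 on the log2 scale (edgeR adjusted p = 0.00761). The DNAAF1-like LOC121417453, after a factor that assembles axonemal dyneins, had 1.91 ± 0.43 (edgeR adjusted p = 0.0297). Another DNAAF1-like gene, LOC121417498, had 1.48 and was not called in the group-only fit (edgeR adjusted p = 0.0838). LOC121422692, named after subunit 3 of the dynein regulatory complex, had 1.47 ± 0.34 (edgeR adjusted p = 0.032). The call of LOC121417453 was lost without secondary library 2, 3 or 4 or primary library 1, with edgeR's adjusted p up to 0.0876. The call of LOC121422692 was lost without secondary library 2, 3 or 4 or primary library 1, 3 or 4, with edgeR's adjusted p up to 0.0949. These losses are from the group-only fit. With the block, both genes stayed called whichever animal was left out, at edgeR adjusted p up to 0.0176 for LOC121417453 and 0.0246 for LOC121422692. The ciliated cell markers given above moved in the same direction, and their part in these differences was not tested.

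Of 70 extracellular leucine-rich repeat genes, named after proteins whose repeats face outward as in human LRRC15, 41 were tested. Of these, 2 were called higher and 1 lower, beside 7.81% of all genes called, and the median was 0.03 on the log2 scale. The blocked fit called 4 higher and 5 lower, beside 24.1% of all genes called. The LRIG3-like LOC121411004, after a vertebrate membrane regulator of growth factor receptors, had 171 CPM in secondary spines and 91.8 CPM in primary spines (log2 fold change 0.89 ± 0.13, edgeR adjusted p = 0.00515). The relaxin receptor 2-like LOC121410439, after a peptide hormone receptor, had 8.98 CPM in secondary spines and 3.14 CPM in primary spines (1.51 ± 0.25, edgeR adjusted p = 0.00763). The other tested relaxin receptor 2-like genes, LOC121430109 (-0.06), LOC121421781 (-0.09) and LOC121409424 (0.73), were not called in the group-only fit. LOC121410017, a second chondroadherin-like gene, was lower: 7.67 CPM in secondary spines and 27.1 CPM in primary spines (-1.82 ± 0.26, edgeR adjusted p = 0.00439).

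Of 82 remaining leucine-rich repeat genes, 67 were tested, and their median log2 fold change was 0.23. Of the 67, 15 were called higher and 1 lower, beside 5.88% and 1.93% of all genes. The blocked fit called 23 higher and 2 lower, beside 12.4% and 11.7% of all genes. The ciliated cell markers, 55 of 65 tested called higher, moved in the same direction, and their part here was not tested. The smallest p-values belonged to LOC121410040 (LRRC71-like, log2 fold change 2.04 ± 0.16, edgeR adjusted p = 0.000848), LOC121408233 (LRRC43-like, 1.53 ± 0.18, edgeR adjusted p = 0.00228), LOC121418180 (LRRC74A-like, 1.19 ± 0.15, edgeR adjusted p = 0.00266) and LOC121419120 (LRRC9-like, 2.03 ± 0.26, edgeR adjusted p = 0.00285). The gene called lower was LOC121407788, annotated as LRRC4C-like, with 12.3 CPM in secondary spines and 26.6 CPM in primary spines (-1.11 ± 0.27, edgeR adjusted p = 0.0395). In the group-only fit its call was lost without secondary library 1, 3 or 4 or primary library 1, 2 or 4 (edgeR adjusted p up to 0.113). It was also lost with library size alone (edgeR adjusted p = 0.0728). With the animal as a block it was called lower (-1.14 ± 0.15, edgeR adjusted p = 0.00171), with -1.35 to -0.68 on the log2 CPM scale within animals. The other tested LRRC4C-like genes, LOC121422818 (0.36), LOC121423266 (0.64) and LOC121411811 (0.36), were not called in the group-only fit.

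By domain instead of name, 238 genes carry PF13855 and 150 of them were tested. Without LOC121417626 and LOC121417628, 148 were tested, and edgeR called 8 higher and 2 lower in secondary spines, beside 5.88% and 1.93% of all genes. Their median was 0.01 on the log2 scale. The blocked fit called 22 higher and 9 lower, beside 12.4% and 11.7% of all genes, and DESeq2 called 12 higher and 5 lower, beside 8.34% and 4.57%.

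**Figure D5:**
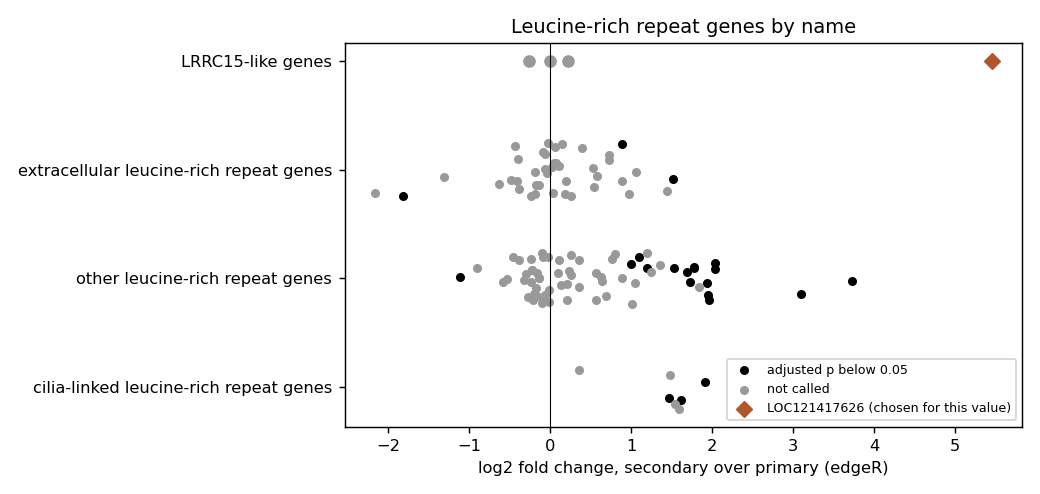
Log2 fold change, secondary over primary (edgeR), of each tested leucine-rich repeat gene by list, with called genes in black and LOC121417626 as a diamond. The other 3 tested LRRC15-like genes lie between -0.26 and 0.22, and no gene of the lists reaches the 5.45 of LOC121417626.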

How the data were processed

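Poly-A-selected RNA of 8 spine libraries was analysed, grouped by the sample labels. Reads were aligned with HISAT2 2.0.5 and counted with featureCounts, per the submitters' processing notes; the design text names assembly 3.0 of the species. Strand and multi-mapping settings have no statement in the sources used here, and values of overlapping or near-identical genes are therefore uncertain. The deposited counts are whole reads per gene for 26814 genes. The deposited FPKM equal count over gene length and 1 constant per library, 1.06 to 1.08 times the total count in secondary and 0.905 to 0.994 times in primary libraries. The authors' gene length column is in bases and is another unit than the measurements. All IDs, starts and ends matched the RefSeq table of Lvar_3.0, which gave the chromosomes.

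Counts were tested with edgeR 4.0.16 in R 4.3.3 (quasi-likelihood, robust, TMM, filterByExpr, group as the only term; two-sided), checked on simulated data. Alternatives were DESeq2 1.42.0, RLE or no scaling factors, no filter, each library left out, and the animal as a block. Same-numbered libraries share an animal per the design text: their deviations from group means correlated at 0.733 to 0.811, and differently numbered ones at -0.317 to -0.2. The chi-square between libraries of 1 group averaged 37.5 to 60.9 per gene, so none was a duplicate.

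The members and lists were chosen with earlier results of these data known. Named genes were the members, their nearest neighbours by start, the 5 genes most correlated (log2 CPM, prior count 2, mean CPM of 5 or more) with LOC121417626 and with the most abundant other copy, and up to 4 calls per direction of each list by smallest p; exceptions are stated.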

Additional observations from a re-analysis of the deposited data

Results flagged for a closer look

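In 67 groups of 4 libraries, 4 held a library far from its other three by Dixon's ratio; chance alone sets apart about 1 group in 20. All 4 concern neighbours or list genes, and none an LRRC15-like gene. The complement C3-like LOC121417165 was lowest in primary library 4, at 1656 CPM, with the others at 2671 to 2757 CPM. LOC121414012, next to LOC121414011, was highest in primary library 3, at 52.3 CPM, with the others at 9.4 to 16.1 CPM. The chondroadherin-like LOC121410017 was highest in secondary library 2, at 11.0 CPM, with the others at 6.24 to 6.95 CPM. The same gene was lowest in primary library 4, at 18.2 CPM, with the others at 29.1 to 30.8 CPM.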

How the results depend on the processing

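The count of LRRC15-like genes called other than LOC121417626 was 0 under all alternatives run. The count of pairs was 0 too, but with 1 library left out (smallest p 0.0571), or within animals (0.125), no pair could pass. The log2 fold change of LOC121417626 was 5.32 to 5.56 with single libraries left out, 5.46 with the replicate block, 5.45 with DESeq2 and 5.61 with library size alone, where the median of all genes was 0.139, against -0.026 with TMM. By counts in place of FPKM, its share of the copies' sum was 11.6% in secondary and 0.252% in primary spines. Of all genes, 1311 were called in the group-only fit, 4041 with the replicate block, 2379, 2608, 2864 and 3221 with the block and animal 1, 2, 3 or 4 left out (chosen after seeing the data), 2167 with DESeq2, and 876 to 1125 with single libraries left out. Of the leucine-rich repeat lists together, 22 were called in the group-only fit, 40 with the block, 32, 31, 33 and 38 with the block and animal 1, 2, 3 or 4 left out, 34 with DESeq2, and 12 to 21 with single libraries left out. Signs changed for 7 genes that were not called and 1 LRRC15-like gene. LOC121414011 was at -0.01 with RLE, no filter or DESeq2, -0.09 with the block, -0.02, -0.26 and -0.17 with the block and without animals 2, 3 or 4, and -0.56 to 0.25 with single libraries left out. With library size alone, LOC121430114 was at 0.02, LOC121422276 at 0.11, LOC121417165 at 0.09 and LOC121418871 at 0.10. With the block and 1 animal left out, LOC121422276 was at 0.07 (animal 1) and 0.05 (animal 2), LOC121417165 at 0.10 (animal 1) and LOC121418871 at 0.01 (animal 3) and 0.03 (animal 4). With single libraries left out, LOC121424519 ran from -1.27 to 0.08, LOC121420505 from -0.61 to 0.04, LOC121422276 from -0.30 to 0.27, LOC121417165 from -0.34 to 0.04, LOC121414012 from -1.23 to 0.38 and LOC121418871 from -0.22 to 0.15. The cause of these shifts was not tested. Depth limits the low copies: with 82 primary reads in all, the primary level of LOC121417626 is the least precise part of its ratio.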
